A study of Mus musculus with 4 samples.

Results

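The 10 genes of the muscle atrophy programme described here were examined in cultured mouse myoblasts with and without Tet2. They are the ubiquitin ligase genes Trim63, Trim54, Trim55 and Trim32, the genes Fbxo32, Fbxo30 and Fbxo40 for the F-box subunits of ubiquitin ligases, and the genes Foxo1, Foxo3 and Foxo4 for transcription factors. They were found by symbol among the 24445 genes of the expression table, and all 10 were present once. RNA came from 4 libraries, 2 of wild type (WT) and 2 of Tet2 KO cells, all of strain C57BL/6. Satellite cells, the stem cells of muscle, were sorted from hindlimb and grown on collagen for at least 3 days until they were MyoD-positive myoblasts. The Tet2 KO mice lacked exon 3 of Tet2 in all tissues, and neither group received a further treatment. The expression table gives each gene 1 value for WT and 1 for Tet2 KO in FPKM, the number of fragments for each kilobase of transcript among 1000000 mapped, and the authors had combined the libraries of a group in it. No SD, test or p-value therefore stands beside any difference here, and depth is unknown. Where a pair of values is given below without group names, WT comes first.

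Ubiquitin ligases choose the proteins that are marked with ubiquitin for destruction by the proteasome. Trim63 (MuRF1) and Fbxo32 (MAFbx, or atrogin-1) are the classical ligase genes of muscle wasting, and Trim54 (MuRF3) and Trim55 (MuRF2) encode close relatives of MuRF1 that also bind sarcomeres and microtubules. In adult muscle Foxo factors enter the nucleus when Akt signalling is low and activate Trim63 and Fbxo32. The study measured both of them as genes of muscle atrophy.

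Every one of the 10 genes had a lower value in Tet2 KO than in WT. The size ranged from 25.3% of the WT level for Trim63 to 88.8% for Foxo4. For comparison across genes, 11692 genes with a mean of at least 1 FPKM over both groups were kept, and differences were taken as log2((Tet2 KO + 1) / (WT + 1)), a scale on which the differences of weakly expressed genes are shrunk. Of the 10 genes, 9 reached that level, and Fbxo40 did not. All 9 were lower in Tet2 KO, against 51.2% of the genes kept. Trim63 and Trim54 were at least 2-fold lower, against 1.21% of the genes kept, and 0 of the 9 were at least 2-fold higher, against 2.08%. The median of the 9 genes was -0.34, and that of all genes kept was -0.0044.

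**Figure D1:**
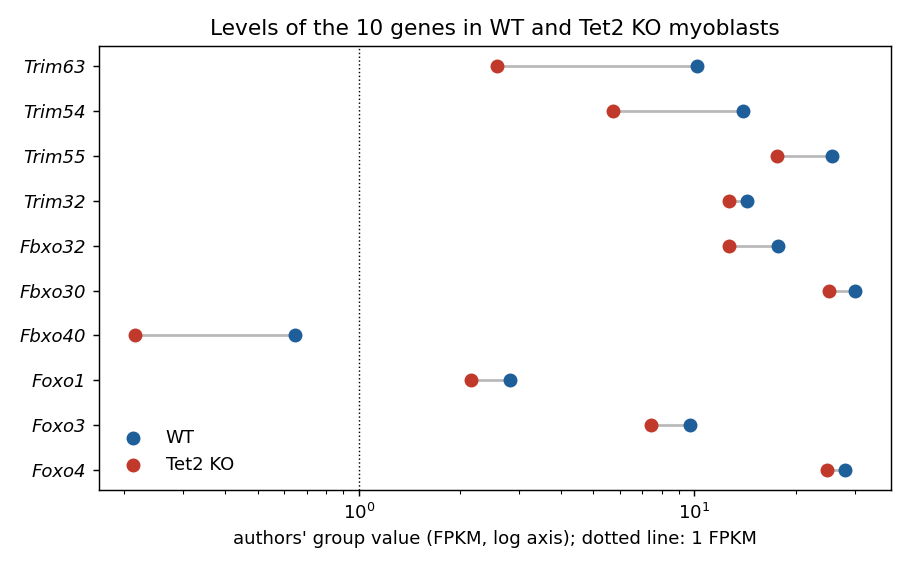
Level of each of the 10 genes in WT (blue) and Tet2 KO (red), as the authors' FPKM value per group on a log axis. The red point lies left of the blue point for every gene, with the widest gaps for Trim63 (10.2 and 2.57 FPKM) and Fbxo40 (0.646 and 0.215 FPKM).

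Some facts of the libraries bear on these values. Tet2 itself had 6.64 FPKM in WT against 5.79 FPKM in Tet2 KO, a value over the whole gene that does not show the deleted exon. Tet1 had 0.484 and 0.364 FPKM, and Tet3 had 3.39 and 3.70 FPKM. The 6 myoblast markers were present in both groups, with differences from -0.27 to -0.02 on the log2 scale above, and the most abundant, Des, had 449 FPKM in WT against 372 FPKM in Tet2 KO. The 7 markers of differentiated muscle were all lower in Tet2 KO, from -1.60 for Acta1 to -0.93 for Ckm. The 10 leukocyte markers were all higher, from 0.88 to 2.07, and their summed level was 102 FPKM in WT against 398 FPKM in Tet2 KO. None of them was at 0, and Lyz2 was the most abundant. The 5 fibroblast markers that were kept were higher by 0.11 to 0.95, with Col3a1 the most abundant, and the 5 endothelial markers summed to 3.53 and 3.32 FPKM, led by Pecam1. In RNA of a whole culture, fewer cells of a type and less RNA per cell cannot be told apart. The part of these markers in the differences described below was not tested.

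The muscle RING-finger ligases, which carry a RING finger at their N terminus, held the largest differences. Trim63 lies on chromosome 4 from 133871035 to 133885544 on the plus strand of mm9, and the longest annotated coding transcript has 9 exons and 1886 bases. It had 10.2 FPKM in WT against 2.57 FPKM in Tet2 KO. The ratio of these values was 3.95-fold, and the difference was -1.64 on the log2(FPKM + 1) scale. Only 20 of the 11692 genes kept, Trim63 included, had a difference this low or lower. Over the length of its transcript the values correspond to 19.2 and 4.85 fragments in each 1000000 mapped.

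Trim54, on chromosome 5 from 31418985 to 31439999, had 13.9 FPKM in WT against 5.70 FPKM in Tet2 KO. Its difference of -1.16 was the second lowest of the 9 genes, and 0.924% of the genes kept were as low or lower. The annotated antisense gene Gm15469 spans 475 of the 1434 bases of its transcript, and the library kit did not mark strand, so their reads cannot be told apart. Trim55, on chromosome 3 from 19544460 to 19591599, had 25.7 and 17.6 FPKM, a difference of -0.52. Trim55 was thus the most abundant of the 3 genes in both groups and the one with the smallest difference. The sum of the 3 genes was 49.8 FPKM in WT against 25.9 FPKM in Tet2 KO. Trim55 made up 68.0% of this sum in Tet2 KO and 51.6% in WT, whereas Trim63 made up 9.95% and 20.4%.

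How common such differences were depended on level. Among the 4803 genes with a mean from 1 to 10 FPKM, the central 95% of differences ran from -0.78 to 1.18, and 1.44% of genes were at least 2-fold lower. Trim63 and Trim54 lay below that range. Among the 5954 genes from 10 to 100 FPKM, the central 95% ran from -0.51 to 0.40, and Trim55 lay just below it. The other 6 genes that were kept lay inside the range of their level.

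**Figure D2:**
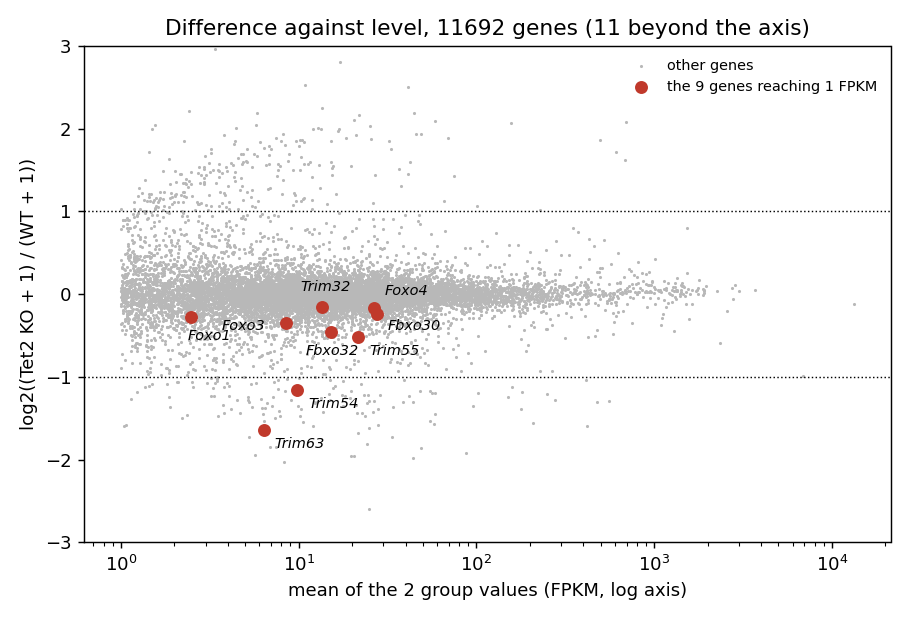
Difference between Tet2 KO and WT (log2 of the FPKM values with 1 added) against the mean FPKM of both groups (log axis) for 11692 genes, with the 9 kept genes in red and dotted lines at 2-fold. Trim63 (-1.64) and Trim54 (-1.16) lie below the lower line, and the other 7 lie between -0.52 and -0.16; 11 genes fall beyond the axis.

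The promoters of Trim63 and Trim54 are shown because, of the 9 genes kept, they differed most on the log2(FPKM + 1) scale. That of Trim32 is shown because Trim32 was the ligase gene that differed least. Each window runs from 250 bases before to 50 bases after the start of transcription, 5′ to 3′ on the strand of the gene. Sequences are from RefSeq (GRCm38.p6), and each was found once, without mismatch, in mm9. Capitals mark E-boxes, the CANNTG sites to which MyoD and myogenin bind, and the Foxo motif GTAAACA on either strand, read here as TGTTTAC. The windows lie at chr4:133870785-133871084, chr5:31418735-31419034 and chr4:65265770-65266069 of mm9, all on the plus strand.
Trim63: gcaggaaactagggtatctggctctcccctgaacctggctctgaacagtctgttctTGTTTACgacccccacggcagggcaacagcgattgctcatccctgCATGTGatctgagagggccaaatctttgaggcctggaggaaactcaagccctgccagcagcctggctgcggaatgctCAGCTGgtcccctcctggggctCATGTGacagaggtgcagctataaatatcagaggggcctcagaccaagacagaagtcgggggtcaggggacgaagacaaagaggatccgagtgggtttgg
Trim54: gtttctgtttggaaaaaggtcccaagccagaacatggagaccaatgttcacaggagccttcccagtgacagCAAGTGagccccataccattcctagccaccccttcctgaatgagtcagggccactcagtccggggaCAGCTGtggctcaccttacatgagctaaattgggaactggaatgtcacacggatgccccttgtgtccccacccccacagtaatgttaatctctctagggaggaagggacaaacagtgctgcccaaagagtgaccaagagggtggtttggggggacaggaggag
Trim32: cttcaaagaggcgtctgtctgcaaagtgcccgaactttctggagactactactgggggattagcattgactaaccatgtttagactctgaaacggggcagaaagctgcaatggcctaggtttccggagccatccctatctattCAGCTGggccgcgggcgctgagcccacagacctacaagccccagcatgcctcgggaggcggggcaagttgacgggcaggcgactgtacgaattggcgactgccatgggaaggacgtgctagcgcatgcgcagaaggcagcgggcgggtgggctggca

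The Trim63 window held 3 E-boxes, at 149, 72 and 50 bases before the start, and 1 Foxo motif at 194 bases. The Trim54 window held E-boxes at 179 and 113 bases and no Foxo motif, and the Trim32 window held 1 E-box at 107 bases. All 3 windows held the E-box CAGCTG, which 16.3% of the 32841 promoter windows of the table contained. At least 3 E-boxes of any letters were present in 17.6% of windows and the Foxo motif in 3.65%. These are matches of letters and not measured binding sites.

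Promoter windows were listed for 7 of the 10 genes. Trim55, Fbxo32 and Foxo4 had no entry. The windows of Trim63 and Trim54 held 7 and 2 CG dinucleotides, and both windows of Fbxo40, which has 2 listed starts, held 3 and 2. The first Fbxo40 window, from 36990504 to 36990803, lies beyond the span of Fbxo40 in the expression table, which ends at 36979222. Trim63, Trim54 and Fbxo40 had the lowest Tet2 KO levels relative to WT, from 25.3% to 40.9%. Fbxo40 was below 1 FPKM in both groups and was not among the genes kept, so its percentage rests on few fragments. Trim32 had 18 CG, and Foxo1, Foxo3 and Fbxo30 had 31, 35 and 47, with Tet2 KO levels from 76.6% to 88.7% of WT. The listed Fbxo30 window, from 11001135 to 11001434, lies inside the span of that gene in the expression table, which starts at 11001128. The Foxo motif was found in the window of Trim63 and in none of the other 6 genes. The windows of Fbxo30 and Foxo3 held no E-box, that of Foxo1 held 1, and the 2 windows of Fbxo40 held 4 and 2.

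**Figure D3:**
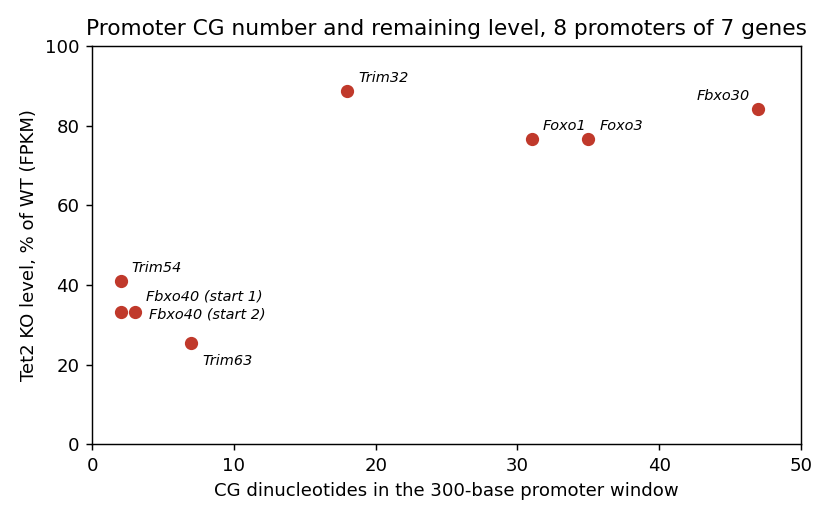
Number of CG dinucleotides in the promoter window (x axis) against the Tet2 KO level as a percentage of WT (y axis, from FPKM) for 8 windows of 7 genes. Windows with 7 CG or fewer belong to genes at 25.3% to 40.9% of WT, and windows with 18 or more to genes at 76.6% to 88.7%. Both windows of Fbxo40 are among those with 7 CG or fewer, and that gene was below 1 FPKM in both groups. The Fbxo40 window with 3 CG lies outside the span of that gene in the expression table. The Fbxo30 window with 47 CG lies inside the span of its gene.

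The same count was made over 7265 kept genes with a single listed window, after the pattern had been seen. The limits of the classes, 7 and 31 CG, are the numbers in the windows of Trim63 and Foxo1. Trim63 and Trim54 are themselves among the genes counted as at least 2-fold lower. Of 754 genes with 7 or fewer CG, 6.76% were at least 2-fold lower in Tet2 KO and 14.9% at least 2-fold higher. Of 4962 genes with 8 to 30 CG, 0.584% were lower and 0.746% higher by that size, and of 1549 genes with 31 or more CG, 0 were lower and 7 (0.452%) higher. Large differences in both directions were thus more frequent at windows with 7 or fewer CG, the class of Trim63 and Trim54. The median over all 32841 windows scanned was also 7 CG. The Trim63 window is therefore poor in CG only beside those of the 7265 kept genes. Genes with 3 or more E-boxes were at least 2-fold lower in 2.70% of 630 cases and higher in 3.81%. Those with 1 or 2 E-boxes were so in 1.45% and 2.41% of 3851 cases, and those with none in 0.251% and 1.40% of 2784. Both directions were thus more frequent with more E-boxes. CG and E-boxes were counted in the same windows, and neither count was split by the other or by level. Of 175 genes with the Foxo motif, 2 (1.14%), Trim63 among them, were at least 2-fold lower and 6 (3.43%) higher. The shares were 1.10% and 2.12% of the 7090 genes without it.

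The F-box subunits, which carry substrates to ligases of the SCF type, differed less than Trim63 and Trim54 on the log2(FPKM + 1) scale. Fbxo32, on chromosome 15 from 58007434 to 58046447, had 17.7 FPKM in WT against 12.6 FPKM in Tet2 KO. This was 71.3% of the WT level, a difference of -0.46, and 4.03% of the genes kept were as low or lower. The lincRNA Gm15943 on the opposite strand spans 383 of the 2722 bases of its transcript. Fbxo30 (MUSA1), a ligase subunit induced in wasting muscle and restrained by BMP signalling, lies on chromosome 10 from 11001128 to 11017767. It was the most abundant of the 10 genes in both groups, with 29.97 and 25.2 FPKM and a difference of -0.24. Fbxo40, a muscle-restricted subunit that targets the insulin receptor substrate Irs1, lies on chromosome 16 from 36966159 to 36979222. It had 0.646 FPKM in WT against 0.215 FPKM in Tet2 KO, or 3.32 and 1.11 fragments in each 1000000. The Fbxo40 ratio of 3.00-fold thus rests on the fewest fragments of the 10 genes, and the gene stayed below the level at which genes were compared. The sum of the 3 genes was 48.4 FPKM in WT against 38.1 FPKM in Tet2 KO.

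Trim32 encodes a ligase of another TRIM subfamily, with NHL repeats at its C terminus, that is mutated in a limb-girdle muscular dystrophy. It had 14.3 FPKM in WT against 12.7 FPKM in Tet2 KO, 88.7% of the WT level. Its difference of -0.16 was, with that of Foxo4, the smallest of the 9 genes, and 17.3% of the genes kept were as low or lower. The expression table gives it a span of 1023681 bases, because Trim32 (11253 bases in GENCODE, with 1 coding exon) lies inside Astn2 on the opposite strand. Astn2 had 0.0306 and 0.0238 FPKM, far below Trim32.

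The 3 Foxo genes were each lower by a small amount. Foxo4, on chromosome X from 98449867 to 98456212, was the most abundant, with 28.0 FPKM in WT against 24.9 FPKM in Tet2 KO. Foxo3, on chromosome 10 from 41905592 to 41996548, had 9.68 and 7.41 FPKM. Foxo1, on chromosome 3 from 52072259 to 52154031, had 2.82 and 2.16 FPKM, and a processed transcript on the opposite strand spans 988 of the 5552 bases of its transcript. The differences were -0.16, -0.34 and -0.27 in this order, and between 6.41% and 16.8% of the genes kept were as low or lower. The order of the 3 levels was the same in both groups, and Foxo4 made up 72.2% of their sum in Tet2 KO and 69.2% in WT. The sum was 40.5 FPKM in WT against 34.5 FPKM in Tet2 KO. The remaining family member, Foxo6, had 0.793 and 0.322 FPKM. RNA levels do not report on where Foxo proteins lie in the cell, which is how Akt controls them.

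The genes around this pathway were then compared, and none of the 6 pathway lists had a gene at least 2-fold higher. Of 20 kept genes that act on Foxo factors, 11 were lower and 9 higher, with a median of -0.03 and 0 at least 2-fold lower. Ywhaz, a 14-3-3 protein gene, had 227 and 230 FPKM, and Akt1, the kinase gene, had a difference of 0.02. Of 23 kept genes described as Foxo targets, 13 were lower and 10 higher, with a median of -0.10 and 0 at least 2-fold lower. Ctsl, the gene of the lysosomal protease cathepsin L, had 300 FPKM in WT against 157 FPKM in Tet2 KO, a difference of -0.92. Eif4ebp1, the gene of a repressor of translation initiation, had 121 and 123 FPKM.

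The machinery shared with other ligases showed smaller differences. The 17 genes of the SCF core, the ubiquitin-activating and conjugating enzymes and ubiquitin ranged from -0.15 to 0.20, with a median of -0.03. Ubb, a polyubiquitin gene, had 337 FPKM in WT against 387 FPKM in Tet2 KO, and Nedd8, whose product activates cullins, had 257 and 252 FPKM. Of 17 kept genes for other ligases studied in muscle, 9 were lower and 8 higher, with a median of -0.0048. Trim72 (MG53), a membrane repair gene that is largely restricted to striated muscle, was the 1 gene at least 2-fold lower, with 40.9 and 15.0 FPKM. Asb2, the gene of a substrate-binding subunit of a cullin ligase, had 2.61 and 1.27 FPKM, a difference of -0.67 that passed 2-fold without the pseudocount (-1.04); it was named after its values were seen.

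Upstream of Trim63 and Fbxo32, 16 kept genes had a median of -0.12, with 12 lower and 4 higher. Myog, the gene of myogenin, which activates both ligase genes in denervated muscle, was the 1 gene at least 2-fold lower, at -1.04. Its level was 554 FPKM in WT against 268 FPKM in Tet2 KO. Of 13 kept genes for described substrates or partners of the ligases, 5 were at least 2-fold lower, against 1.21% of the genes kept. The median was -0.93, with 11 lower and 2 higher. The largest were the contractile genes Acta1, Mylpf, Myl1 and Tnni2, at -1.60, -1.30, -1.21 and -1.17. The list was split, because Des, Sqstm1, Myod1, Nbr1, Dtnbp1 and Eif3f lay only between -0.27 and 0.02. These were named after their values were seen. The rest of the list lay between -1.60 and -0.93. Trim63, at -1.64, was lower than each gene of this list and each of the 7 markers of differentiated muscle, while Trim54, at -1.16, lay within the range of those markers. These lists share Myog, Acta1 and Ckm, so they are not separate evidence.

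**Figure D4:**
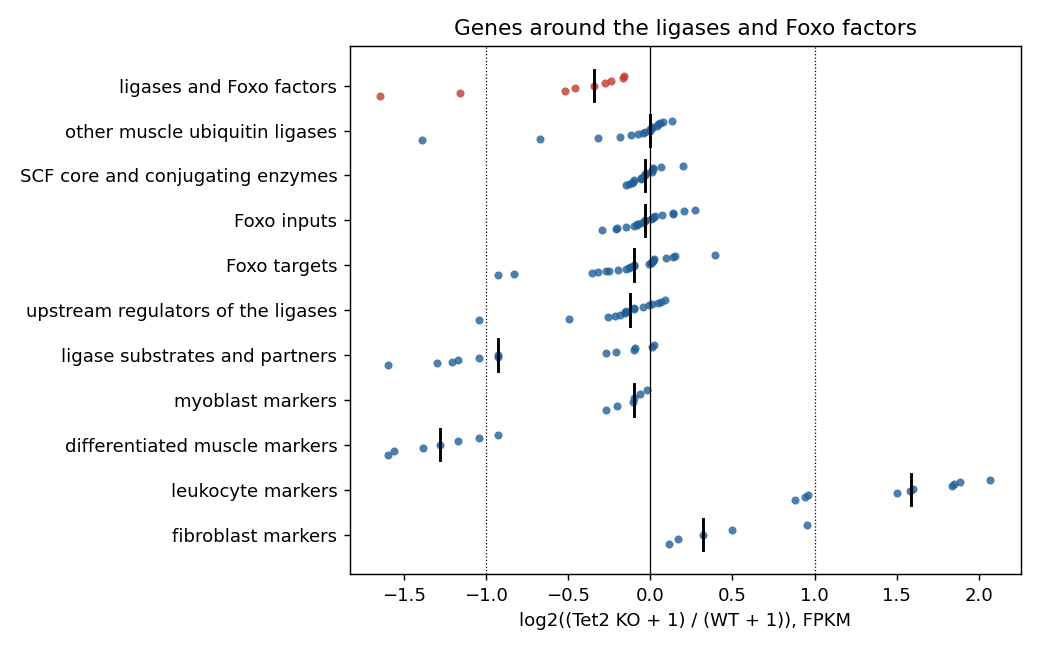
Difference between Tet2 KO and WT (log2 of the FPKM values with 1 added) for the kept genes of each list, 1 point per gene, with a bar at the list median and dotted lines at 2-fold. The ligases and Foxo factors (red, median -0.34) lie left of 0; the markers of differentiated muscle have a median of -1.28 and the leukocyte markers of 1.59.

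Within their own families the ligases were placed as follows. Of the 34 Trim genes kept, Trim63 had the lowest difference, Trim54 the fourth lowest, Trim55 the fifth and Trim32 the 12th. The other 30 Trim genes had a median of -0.0016, with 15 lower and 15 higher. Between Trim63 and Trim54 stood Trim12a (-1.58) and Trim72 (-1.39), and at the other end stood Trim30a (1.12) and Trim12c (0.31). Trim12a, Trim12c and Trim30a have close copies in 1 gene cluster, so their values are uncertain. Of the 27 Fbxo genes kept, Fbxo32 had the second lowest difference after Fbxo17 (-0.57), and Fbxo30 the seventh lowest. Fbxo44 had -0.39, and the highest were Fbxo48 (0.37) and Fbxo5 (0.16). The other 25 Fbxo genes had a median of -0.09, with 19 lower and 6 higher, so the direction of Fbxo30 and Fbxo32 was common in that family.

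**Figure D5:**
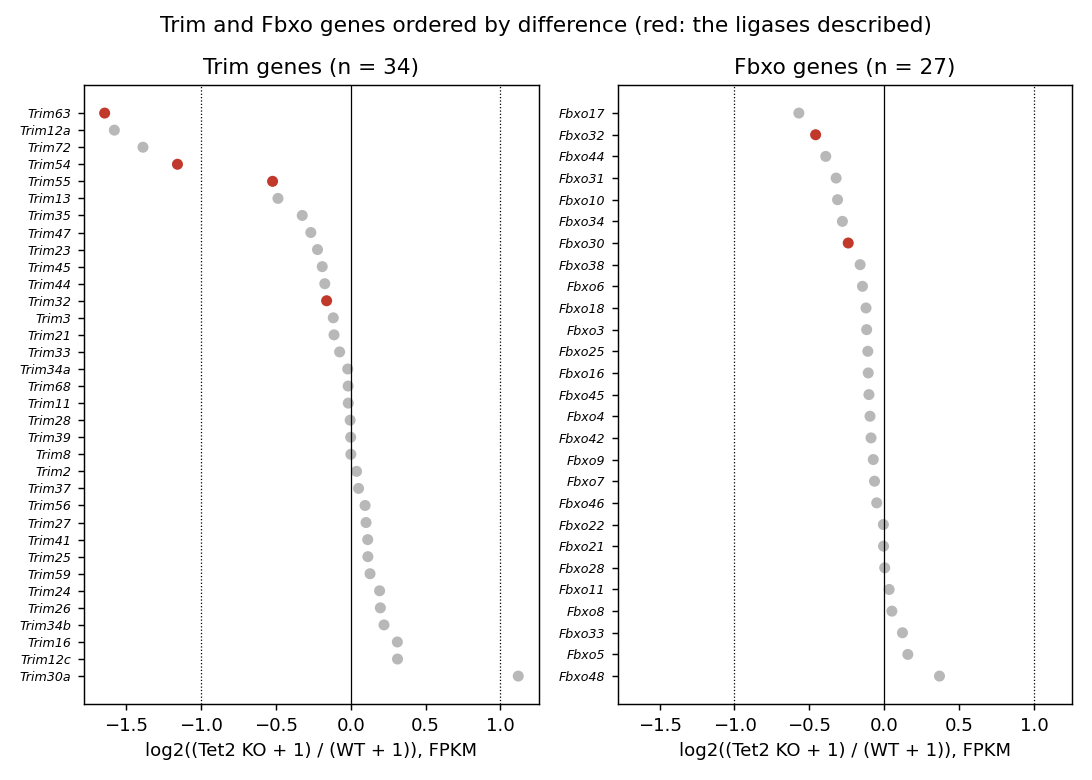
Difference between Tet2 KO and WT (log2 of the FPKM values with 1 added) for each kept Trim gene (left) and Fbxo gene (right), ordered from the lowest at the top, with the ligases described here in red and dotted lines at 2-fold. Trim63, Trim54 and Trim55 are among the 5 lowest Trim genes, and Fbxo32 is the second lowest Fbxo gene.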

How the data were processed

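RNA of WT and Tet2 KO primary myoblasts (2 libraries each, TruSeq RNA v2 from 1 ug of total RNA) was sequenced. The authors trimmed reads, aligned read pairs to mm9 with TopHat2 2.0.13 and estimated expression with Cuffdiff 2.2.1, per the study's methods and the submitters' processing notes; the gene annotation is not given in the sources used here. The deposited values are FPKM, which the authors scaled between groups and gave as 1 value per gene and group; how libraries were combined is not stated. Log2 ratios, test statistics, p-values and q-values of the authors' own comparison were not used.

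From the FPKM values log2((Tet2 KO + 1) / (WT + 1)) was computed for 11692 of 24445 genes with a mean of at least 1 FPKM. With 1 value per group no test was made, and a limit of 2-fold stood in its place. The calculation was tested on simulated data. The genes described and the gene lists were chosen with earlier results of these data known. Named were the 10 genes, the Tet genes, list members past 2-fold (at most 4) or else the 2 most abundant, the 2 extremes at each end of the Trim and Fbxo families, and the most abundant markers; genes outside that rule are named as such or as neighbours of a described gene. Coordinates are those of the expression table with 1 added to starts, and exons came from GENCODE vM1, both mm9. Promoters were from RefSeq (GRCm38.p6), placed in mm9 by exact match. Alternatives were another pseudocount or none, another or no minimum level, TPM, median centring and a limit of 1.5-fold. Python 3.11.15, numpy 2.4.6, pandas 2.3.3 and matplotlib 3.10.9 were used.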

Additional observations from a re-analysis of the deposited data

How the results depend on the processing

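No paired analysis was possible because the expression table holds 1 combined value per group and none per library; leaving out a library was not possible for the same reason. The depth is unknown, which bears most on the values with the fewest fragments, those of Fbxo40 and of Trim63 in Tet2 KO. The 9 kept genes stayed lower in Tet2 KO, and Trim63 and Trim54 stayed past 2-fold, under every alternative that kept them: Trim63 ranged from -1.98 to -1.64, Trim54 from -1.29 to -1.15. A minimum of 5 FPKM left out Foxo1. No pseudocount can turn the sign of a single gene. Most of the alternatives also could not have removed the 2-fold calls of Trim63 and Trim54. A smaller pseudocount enlarges a difference, a minimum level leaves it unchanged, and the limit of 1.5-fold is looser. A pseudocount above 1 FPKM was not tried. The counts of 142 genes at least 2-fold lower and 243 higher moved with the setting: 215 lower at a pseudocount of 0.1, 224 lower with none, 109 higher at a minimum of 5 FPKM, and 338 lower and 435 higher at a limit of 1.5-fold. List medians close to 0 turned sign: that of the other Trim genes to 0.00062 with no filter, 5.2e-05 at a minimum of 5 FPKM, 0.0034 as TPM and 0.0027 after centring, that of the other muscle ligases to 0.0055 at a minimum of 5 FPKM, and that of the endothelial markers to 0.024 with no filter, which raised the markers counted from 1 to 5. The count of other muscle ligases at least 2-fold lower went from 1 to 2 with no pseudocount and at a limit of 1.5-fold, by adding Asb2.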

Other observations

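Among the Foxo targets, the gene next to Ctsl in size of difference was Gadd45a, a stress-response gene, with 65.8 FPKM in WT against 36.5 FPKM in Tet2 KO, a difference of -0.83 on the log2(FPKM + 1) scale. At the other end stood Txnip, a regulator of glucose uptake, with 19.2 and 25.6 FPKM (0.39). The autophagy genes Ulk2 and Ulk1, which encode related kinases, had differences of -0.35 and 0.10, and Pdk4, a gene of fuel choice in muscle, had 9.46 and 9.49 FPKM. These genes were named after their values were seen.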
